A study of Mus musculus with 12 samples.

Results

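CD8+ T cells kept with IL-12 in medium labelled 80%TCM were compared with CD8+ T cells kept with IL-2 alone. The comparison was defined by the treatment labels and took 6 of the 12 bulk RNA sequencing libraries of the series, 3 labelled IL-12 80%TCM and 3 labelled IL-2. All 12 libraries came from CD8+ T cells of C57BL/6 mouse splenocytes, and the other groups, IL-2 80%TCM and IL-12 without TCM, also had 3 libraries each. The labels do not spell out TCM or name another agent or genotype, while the series title speaks of tumor-like conditions. Cytokine and medium differ together between the compared groups, so the remaining groups were used to divide each difference into a part that went with IL-12 and a part that went with TCM. In units of 1e+06, gene counts per library were 21.8 to 23.9 for IL-2, 19.5 to 20.6 for IL-12 80%TCM, 19.6 to 26.0 for IL-2 80%TCM and 20.7 to 49.6 for IL-12. The level of a gene is its count per 1e+06 counts (CPM) on scaled library sizes, which does not correct for gene length, so levels of different genes are not compared. Whether replicate libraries stem from different animals or cultures is not said in the labels, and p-values therefore reflect the spread between these samples alone, part or all of which may be technical.

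IL-2 is a growth cytokine of T cells that signals through the kinases JAK1 and JAK3 to the transcription factor STAT5, and it maintains proliferation, survival and granzyme expression. IL-12 binds a receptor of the chains encoded by Il12rb1 and Il12rb2 and signals through STAT4, and it is known for inducing interferon gamma and the type 1 program of killer T cells. Cells short of sterol process the factors SREBP1 and SREBP2, which switch on the genes of fatty acid and cholesterol synthesis, whereas LXR receptors switch on sterol export when sterol is plentiful.

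IL-2 replicate 3 stood apart from the other IL-2 libraries. A chi-square of gene counts between replicates, divided by its degrees of freedom, is near 1 for counting error alone and was 2.40 between IL-2 replicates 1 and 2, 28.8 and 28.5 for the pairs with replicate 3, and 2.89 to 3.47 within IL-12 80%TCM. In that library 25 of 26 hypoxia genes and 23 of 25 glycolysis genes lay above both other IL-2 libraries, with median log2 shifts of 1.16 and 1.14, as did 31 of 32 mitosis genes with a smaller shift of 0.18. In the same library 25 of 28 proteasome genes lay below both (median -0.16), and 30 of 34 genes of MYC and ribosome biogenesis lay below both, with a median of -0.32. Results that it moves are given below also without replicate 3 of both IL-2 groups. That setting left 2 libraries in each IL-2 group.

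The libraries carried the markers of CD8+ T cells. The 15 genes listed for that cell type summed to 6446 to 7226 CPM in IL-2 and 7359 to 7739.7 CPM in IL-12 80%TCM, and Cd4 averaged 1.21 and 2.45 CPM. Markers of B cells and MHC class II summed to 577 to 872 CPM in IL-2 and 108 to 117 CPM in IL-12 80%TCM. Most of that sum was Ighm, the immunoglobulin mu constant region, at 775, 722 and 443 CPM in IL-2 and 59.5, 63.9 and 63.0 CPM in IL-12 80%TCM, while the defining B cell marker Ms4a1 averaged 0.156 CPM in IL-2 and 0.123 CPM in IL-12 80%TCM. Platelet and megakaryocyte markers summed to 312 to 351 and 118 to 127 CPM, of which Itgb3 averaged 209 and 89.5 CPM and the more specific Pf4 32.1 and 5.95 CPM. Natural killer markers summed to 178 to 199 and 123 to 129 CPM, nearly all of it Gzma (127 and 99.0 CPM) and Eomes (57.3 and 21.8 CPM), which CD8+ T cells also express, and the defining Ncr1 averaged 0.155 and 0.173 CPM. Myeloid markers summed to 84.9 to 93.3 and 101 to 114 CPM, and erythroid markers to 2.353 to 2.74 and 1.05 to 1.85 CPM. In the myeloid list the means of Batf3 (22.1 and 42.4 CPM) and Xcr1 (2.14 and 8.57 CPM) were higher in IL-12 80%TCM. Those of Lyz2 (0.863 and 0.450 CPM), Mpeg1 (1.18 and 0.260 CPM), Fcer1g (2.14 and 0.832 CPM) and Fcgr3 (1.41 and 0.828 CPM) were lower. Gp1bb, S100a9 and Slc4a1 had 0 counts in all 12 libraries. The 9 markers of CD4 and regulatory T cells summed to 798 to 846 CPM in IL-2 and 1997 to 2097 CPM in IL-12 80%TCM, and that list holds Il2ra and Ctla4, which activated CD8+ T cells also express.

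IL-12 with TCM differed from IL-2 at 6685 of 15897 genes tested (42.1%), by edgeR's quasi-likelihood test with Benjamini-Hochberg adjustment at 0.05. Of these, 3283 (20.7%) were higher and 3402 (21.4%) were lower in IL-12 80%TCM, and 895 and 1054 of them differed at least 2-fold. At 8478 genes (53.3%) the 3 libraries of one group all lay above the 3 of the other. In a balanced layout of 4 groups, the log2 fold change of this comparison is exactly the average IL-12 effect (IL-12 groups minus IL-2 groups) plus the average TCM effect (80%TCM groups minus the others). The average IL-12 effect was called at 8927 genes (56.2%) and the average TCM effect at 5702 (35.9%). Among the genes that differed, 3312 had a called IL-12 effect only, 1171 a called TCM effect only, 1500 both in the same direction, 545 both in opposite directions, and 157 neither.

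Effects that add up are defined here as both effects called with the same sign, which held for 1500 genes (9.44%), 806 raised by both (5.07%) and 694 lowered by both (4.37%). Their median absolute log2 fold change against IL-2 was 0.88, and the medians of their effects were 0.50 for IL-12 and 0.33 for TCM, where all genes tested had 0.28, 0.27 and 0.18. Opposed effects were called at 2160 genes (13.6%), of which 1074 (6.76%) were raised by IL-12 and lowered by TCM and 1086 (6.83%) the reverse. At 1615 of the opposed genes IL-12 80%TCM was not called different from IL-2, at 443 it differed in the direction of IL-12 and at 102 in the direction of TCM. A gene was said to return to the IL-2 level when its effects were opposed and the 95% interval of its difference from IL-2 lay within 1.5-fold. This was the case for 1549 genes (9.74%), 923 raised by IL-12 and lowered by TCM (5.81%) and 626 the reverse (3.94%). Returning means only that the level was within that margin, and 261 of the 1549 genes still differed from IL-2 by the test. The typical returning gene moved little in either direction, with median absolute effects of 0.30 for IL-12 and 0.26 for TCM, and 51 of them had 2 effects of at least 1.5-fold, a size limit chosen after the values were seen. Without replicate 3 of both IL-2 groups, 8115 genes differed, 2228 added up and 2145 returned, with 6355, 1405 and 1418 genes shared with the full set.

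**Figure D1:**
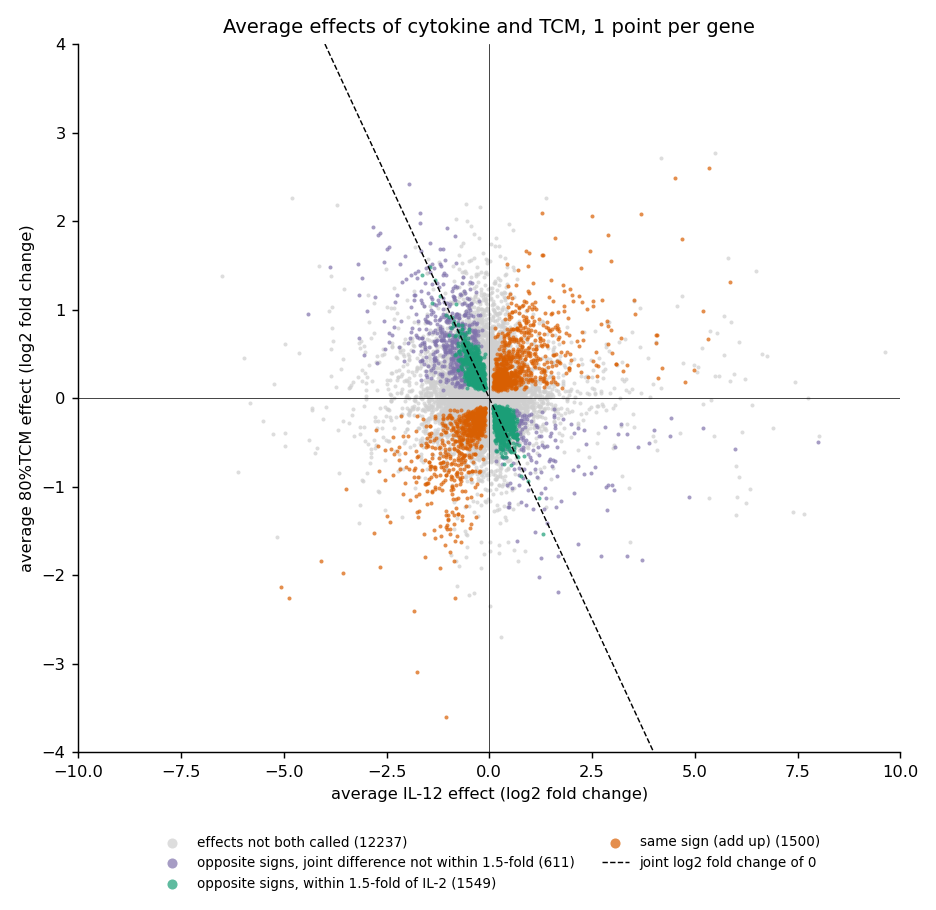
Average IL-12 effect (horizontal axis, log2 fold change) against average 80%TCM effect (vertical axis, log2 fold change) for the 15897 genes tested, 1 point per gene, with genes coloured by whether both effects were called and by their signs. The 1549 returning genes lie by construction along the dashed line where the effects cancel, and the grey points are genes for which fewer than 2 effects were called.

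Some of the largest increases over IL-2 went mainly with IL-12. Ifng, the gene of interferon gamma, was at 1.32, 2.21 and 1.07 CPM in the IL-2 libraries and 77.8, 87.0 and 85.2 CPM in the IL-12 80%TCM libraries. IL-12 alone already had 66.4, 68.0 and 58.9 CPM, and no library of an IL-12 group overlapped an IL-2 group. The log2 fold change against IL-2 was 5.74 ± 0.16 (SE, adjusted p = 1.3e-11), with an average IL-12 effect of 5.49 and an average TCM effect of 0.25. Il10, an anti-inflammatory cytokine gene, went from 0.529, 0.685 and 1.15 to 60.1, 65.7 and 62.3 CPM, a log2 fold change of 6.31 ± 0.15 (adjusted p = 3.4e-12). Csf1, which encodes the growth factor of macrophages, went from 4.01, 4.23 and 2.75 to 271, 289.7 and 266 CPM (6.23 ± 0.22, adjusted p = 1.1e-10). In these 3 genes the spread within a group was small beside the distance between the groups. Il10 and Csf1 were named by a rule that took large fold changes without overlap, so their separation was set by that choice.

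Furin, a protease gene known as a STAT4 target, had the smallest p of the comparison among the listed genes. It was at 109.7, 126 and 112 CPM in IL-2, 121, 109.5 and 116 CPM in IL-2 80%TCM, 1911, 2048 and 1854 CPM in IL-12 and 2270.2, 2342 and 2251 CPM in IL-12 80%TCM. Both IL-12 groups lay far above both IL-2 groups, and the level with TCM was 19.7-fold that of plain IL-2 (log2 4.30 ± 0.071, adjusted p = 1.4e-13). Il18r1, the receptor chain through which IL-18 acts together with IL-12, was at 50.9, 49.7 and 52.1 CPM in IL-2 and 1009.5, 1004 and 1061 CPM in IL-12 80%TCM, 20.1-fold higher, and its smaller TCM effect (0.23) had the same sign as its IL-12 effect (4.10). Of the 21 tested genes listed for the IL-12 receptor, STAT4 and the type 1 response, 12 were higher and 4 lower than in IL-2, with a median log2 fold change of 0.67 against -0.0055 over all genes tested. With all libraries, counts of higher and lower list members here and below stand beside 20.7% higher and 21.4% lower of all genes tested. Counts without replicate 3 of both IL-2 groups stand beside 3852 higher and 4211 lower of 15773 genes, more than with all libraries. Those of members raised or lowered by both effects stand beside 5.07% and 4.37%.

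The IL-12 receptor chains both rose, and both effects pointed up. Il12rb2 had 111, 116 and 172 CPM in IL-2 and 384, 344 and 358 CPM in IL-12 80%TCM (2.72-fold, adjusted p = 1.4e-05), and Il12rb1 had 72.7, 81.5 and 111 and 144, 136 and 139.9 CPM (1.59-fold, adjusted p = 0.0024). Stat4 itself went the other way in part. IL-12 lowered it (-0.42), TCM raised it (0.24), and the IL-12 80%TCM libraries at 86.8, 89.2 and 85.3 CPM stayed a little below IL-2 at 99.8, 98.4 and 96.3 CPM (-0.17, adjusted p = 0.008), a difference that was not called when no filter on low counts was applied (adjusted p = 0.1). Tbx21, the gene of the type 1 factor T-bet, was at 64.7, 68.9 and 91.3 CPM in IL-2 and 153, 163 and 149.6 CPM in IL-12 80%TCM (2.07-fold, adjusted p = 2.3e-05), with no overlap.

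Factors of other T cell states fell. Tcf7, which encodes TCF-1, a factor of naive and memory T cells, was at 1059, 1018 and 750.2 CPM in IL-2 and 324, 322 and 352 CPM in IL-12 80%TCM, a log2 change of -1.501 ± 0.17 (adjusted p = 1.2e-05). Gata3, the factor of type 2 T cells, was at 55.5, 57.5 and 58.4 and 20.2, 19.3 and 21.2 CPM (-1.497 ± 0.063, adjusted p = 5.6e-10). Eomes, a T-box factor of memory cells, fell by a similar amount (-1.39). For these 3 genes the average TCM effect was not called. Bcl6, a repressor found in memory precursors, was instead raised by both effects (0.69 and 0.64) and went from 11.3, 9.87 and 11.9 to 26.1, 27.8 and 28.9 CPM. Over the 34 listed effector and memory factors, 17 were higher and 13 lower, 5 and 4 added up, and none returned to the IL-2 level.

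**Figure D2:**
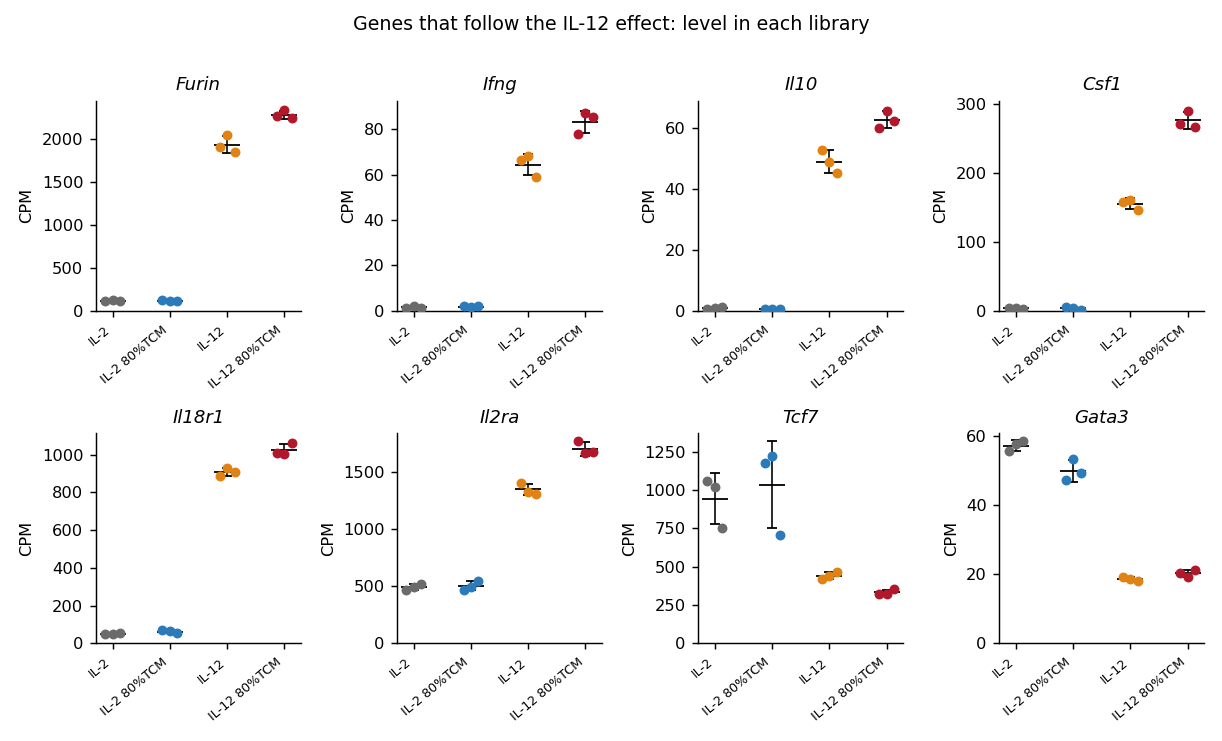
Level in CPM (vertical axis from 0) of 8 genes that followed IL-12 in each of the 12 libraries, with the 4 groups along the horizontal axis. Points are libraries, black bars the mean and error bars the SD of 3 libraries. Furin, Ifng, Il10, Csf1, Il18r1 and Il2ra are high and Tcf7 and Gata3 low in both IL-12 groups.

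Ranked by fold change among non-overlapping genes that averaged 10 CPM or more in the higher group, the top genes were close to absent with IL-2. Cxcr1, a chemokine receptor gene, had 36.2, 34.6 and 33.2 CPM in IL-12 80%TCM and 12 counts in all over the 3 IL-2 libraries. P2rx3, an ATP-gated channel, had 203, 192 and 206 CPM with IL-12 80%TCM and 1.45, 1.17 and 0.666 CPM with IL-2. Ermn, Serpinb5, Sema3b, Mecom, Scrt1 and Rufy4 had 6 to 25 counts over the 3 IL-2 libraries and 721 to 2955 counts over the 3 IL-12 80%TCM libraries. With so few counts in IL-2, the size of these ratios rests on single reads. That the 3 libraries of each group lay on the same side was a condition of the ranking. Not all of these increases went with IL-12 alone. Scrt1 and Ermn were raised by both effects, and the log2 TCM effect on Serpinb5 was 2.20 higher next to IL-12 than next to IL-2. P2rx7, the receptor through which extracellular ATP acts on T cells, was raised mainly by IL-12, from 2.29, 2.78 and 3.15 to 95.7, 95.7 and 93.9 CPM. The AP-1 genes Jun and Fosl2 went from 31.0, 24.6 and 27.9 to 286, 305 and 299 CPM and from 11.3, 11.2 and 16.0 to 172, 167 and 172 CPM.

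Most of the genes listed for the IL-2 and STAT5 response were higher with IL-12 and TCM than with IL-2 itself. Il2ra, the high-affinity chain of the IL-2 receptor, was at 468, 494 and 518 CPM in IL-2 and 1770.2, 1661 and 1670.0 CPM in IL-12 80%TCM, 3.45-fold higher with no overlap (log2 1.79 ± 0.064, adjusted p = 1.2e-10). Pim1, a survival kinase gene, went from 126, 127 and 117 to 562, 621 and 603 CPM (4.83-fold). Both genes added up, with average effects of 1.60 and 1.93 for IL-12 and of 0.18 and 0.34 for TCM. For Il2ra the libraries of IL-2 and IL-2 80%TCM overlapped, with means of 493 and 504 CPM. Its means were 1346 CPM in IL-12 and 1700.5 CPM in IL-12 80%TCM, without overlap. Il7r, the receptor chain for the survival cytokine IL-7, also added up, at 202, 196 and 167 and 519.5, 528 and 520.1 CPM. Other members were lower, among them Bcl2, which encodes an inhibitor of apoptosis, at 344, 354 and 339 and 171, 164 and 169 CPM, and Cdk6, a cell-cycle kinase gene, at 262, 280.2 and 251 and 99.1, 82.9 and 89.2 CPM. Of 30 tested members 18 were higher and 7 lower, with a median log2 fold change of 0.67, and 9 were raised and 3 lowered by both effects.

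Some receptors that restrain T cells and some that support them were higher with IL-12 and TCM. Pdcd1, the gene of the inhibitory receptor PD-1, was at 14.5, 14.5 and 21.9 CPM in IL-2 and 50.9, 51.8 and 49.4 CPM in IL-12 80%TCM (2.99-fold, adjusted p = 1.1e-05), and its TCM effect was not called. Lag3, another inhibitory receptor gene, had 109, 114 and 194 CPM in IL-2, 143, 146 and 141 CPM in IL-12, 139, 148 and 277 CPM in IL-2 80%TCM and 368, 407 and 357 CPM in IL-12 80%TCM. The 3 IL-12 80%TCM libraries were the highest of the 12, and the larger part of the log2 difference of 1.44 ± 0.24 came from TCM (0.92 against 0.53 from IL-12). Cd200 and Adora2a, whose product is a receptor for adenosine, also had both average effects upward and were 5.75-fold and 3.13-fold above IL-2. For Cd200 the TCM effect was 0.61 next to IL-2 and -0.019 next to IL-12 (adjusted p = 0.91), with means of 55.6 CPM in IL-12 and 54.9 CPM in IL-12 80%TCM. Cd96 was lowered by both (-1.001). The costimulatory receptor gene Icos was at 98.2, 93.1 and 95.8 and 291, 286 and 280.0 CPM and Cd28 at 272, 265 and 273 and 599.6, 595 and 577 CPM. Of 19 costimulatory genes 11 were higher and 3 lower (median 0.75), while inhibitory receptor genes had 9 of 22 higher and 7 lower (median -0.015). Havcr2, which encodes TIM-3, was at 11.9, 12.2 and 24.8 and 11.1, 12.1 and 10.04 CPM and was not called (log2 -0.55 ± 0.28, adjusted p = 0.13), and it was called at adjusted p = 0.00016 with no filter on low counts and at 0.047 without IL-2 80%TCM replicate 3.

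Cholesterol synthesis had the largest share of genes with effects that added up among the 42 lists. Of its 27 tested genes, 25 were higher and 0 lower than in IL-2, and 23 were raised by both IL-12 and TCM. The median log2 fold change was 1.51, with medians of 0.80 for the IL-12 effect and 0.71 for the TCM effect, near equal shares. The other 4 included Ggps1 and Ebp, which did not differ by the test (0.11 and -0.0073), and Lbr, which differed by 0.31 without a called TCM effect.

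Hmgcs1, which encodes the enzyme that makes HMG-CoA, showed the pattern in each library. It had 172, 188 and 221 CPM in IL-2, 361, 355 and 397 CPM in IL-2 80%TCM, 422, 388 and 407 CPM in IL-12 and 868, 852 and 831 CPM in IL-12 80%TCM. Each single change lifted it clear of the IL-2 libraries, and the 3 libraries with both changes were the highest, with no overlap between any 2 of IL-2, IL-12 and IL-12 80%TCM. The joint log2 fold change was 2.14 ± 0.082 (adjusted p = 2.2e-10), that is 4.39-fold, from 1.13 for IL-12 and 1.003 for TCM. Msmo1, a sterol demethylation enzyme gene, was at 67.0, 67.6 and 66.8 CPM in IL-2 and 270.4, 287 and 263 CPM in IL-12 80%TCM (2.03 ± 0.056, adjusted p = 9.3e-12), again with near equal effects (1.03 and 1.001). Cyp51, another sterol demethylation enzyme gene, went from 168, 172 and 171 to 525, 521 and 521 CPM. Acat2 rose 3.63-fold, by more than the sum of its 2 steps, and the departure from additivity was 0.57 ± 0.095 (adjusted p = 0.0092).

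The start of Hmgcs1 is shown because it is the only cholesterol synthesis promoter in the RefSeq table (GRCm38.p6, 250 bases before to 50 after each start) with the sterol element letters searched, TCACNCCAC on either strand. The window is chr13:119690101-119690400 on the + strand, and the match is in capitals.
Hmgcs1: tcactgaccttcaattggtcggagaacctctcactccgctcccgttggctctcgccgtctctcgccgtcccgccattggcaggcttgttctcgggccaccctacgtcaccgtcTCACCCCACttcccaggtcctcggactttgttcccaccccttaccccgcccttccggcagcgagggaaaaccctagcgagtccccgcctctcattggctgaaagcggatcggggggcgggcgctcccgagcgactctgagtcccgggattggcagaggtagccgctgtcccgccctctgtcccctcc
These letters were in 1 of 22 windows of listed cholesterol genes (4.55%) and in 408 of all 32851 windows (1.24%), and 19 of the 27 listed genes had a window. A match describes the sequence and is not evidence of binding, and their lack in a window says only that these letters are not in it.

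Fatty acid synthesis moved in the same direction, with a larger share from IL-12. Scd1, the desaturase gene that makes oleic acid, was at 48.2, 47.6 and 63.6 CPM in IL-2 and 251, 244 and 250.1 CPM in IL-12 80%TCM (2.22 ± 0.14, adjusted p = 4.2e-08), and the groups did not overlap. Its average effects were 1.44 for IL-12 and 0.79 for TCM, with a departure of 1.01 above additivity. Fads2, a desaturase of polyunsaturated fatty acids, rose 3.22-fold, Acsl3 2.46-fold and Elovl5 2.15-fold. Of 21 tested genes 15 were higher and 2 lower, with medians of 0.71 against IL-2, 0.64 for IL-12 and 0.18 for TCM, and 10 added up.

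Sterol export genes did not move as one. Abcg1, an LXR target that exports cholesterol, was at 126, 116 and 104 CPM in IL-2, 34.9, 37.5 and 30.8 CPM in IL-2 80%TCM, 55.0, 53.4 and 60.7 CPM in IL-12 and 29.4, 28.6 and 26.2 CPM in IL-12 80%TCM. Both effects lowered it, and the joint log2 fold change was -2.04 ± 0.091 (adjusted p = 1e-09). Rxra, which encodes the partner receptor of LXR, was lowered by both as well, from 15.7, 16.8 and 13.8 to 2.80, 2.04 and 2.997 CPM. Abca1, the best known LXR target, had 25.4, 28.5 and 30.1 CPM in IL-2, 7.03, 6.68 and 6.22 CPM in IL-2 80%TCM, 38.6, 40.4 and 43.9 CPM in IL-12 and 22.4, 19.8 and 21.2 CPM in IL-12 80%TCM. Here the effects opposed each other (1.11 for IL-12 and -1.52 for TCM), and IL-12 80%TCM ended 1.33-fold below IL-2 (adjusted p = 0.0016). Of the 14 listed LXR and export genes tested, 3 were higher and 5 lower, beside 20.7% higher and 21.4% lower of all genes tested.

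Genes of killing moved in both directions. Of 25 tested cytotoxic granule genes 13 were higher and 7 lower than in IL-2 (median 0.15), with 3 raised and 3 lowered by both effects. Prf1, the gene of the pore-forming protein perforin, was at 16.7, 17.9 and 33.7 CPM in IL-2, 25.3, 28.7 and 71.7 CPM in IL-2 80%TCM, 38.3, 35.5 and 34.5 CPM in IL-12 and 106, 111 and 89.0 CPM in IL-12 80%TCM. The IL-12 80%TCM libraries were the 3 highest of the 12, and replicate 3 was the highest library in both IL-2 groups. The log2 fold change was 2.16 ± 0.34 (adjusted p = 2e-04) and 2.54 without replicate 3 of both IL-2 groups. Fasl, which encodes the death ligand, went from 17.8, 17.5 and 22.5 to 62.3, 63.9 and 60.6 CPM (1.14 from IL-12 and 0.55 from TCM). Bst1, an NAD-cleaving surface enzyme gene, was at 11.2, 13.7 and 13.1 CPM in IL-2 and 66.4, 67.8 and 62.1 CPM in IL-12 80%TCM (2.36 ± 0.083), with effects of 1.06 and 1.30 and a departure of -0.49, below additivity. Of 14 listed purine receptors and NAD or purine ectoenzymes, 9 were higher, 2 lower and 5 raised by both. Ncr1, the defining natural killer marker, was near 0 in both groups.

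The remaining genes with the largest paired increases differed in how even they were between libraries. Ffar2, which senses short-chain fatty acids, was at 0.353, 0.685 and 0.666 CPM in IL-2 and 10.3, 10.4 and 9.44 CPM in IL-12 80%TCM. Ppp1r3b, which encodes a glycogen-targeting phosphatase subunit, was at 3.31, 3.06 and 8.52 and 31.5, 31.0 and 29.6 CPM, and Dzank1 at 0.397, 0.443 and 2.18 and 11.9, 14.3 and 12.5 CPM. In Ppp1r3b and Dzank1, IL-2 replicate 3 lay well above the other IL-2 libraries and below every IL-12 80%TCM library. Ferritin heavy chain (Fth1), which stores iron, went from 339, 326 and 309 to 918, 919.8 and 888 CPM. Cd8a rose less, from 959.7, 963 and 813 to 1347, 1365 and 1314 CPM with effects of 0.28 for IL-12 and 0.28 for TCM. Cd8b1, the gene of the other CD8 chain, was instead lower, with means of 598 and 489 CPM (-0.29, adjusted p = 0.017). It was not called in some settings, among them without IL-2 replicate 1 (adjusted p = 0.094). Of 15 CD8 T cell markers 4 were higher and 3 lower (median -0.0033), beside 20.7% and 21.4% of all genes.

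**Figure D3:**
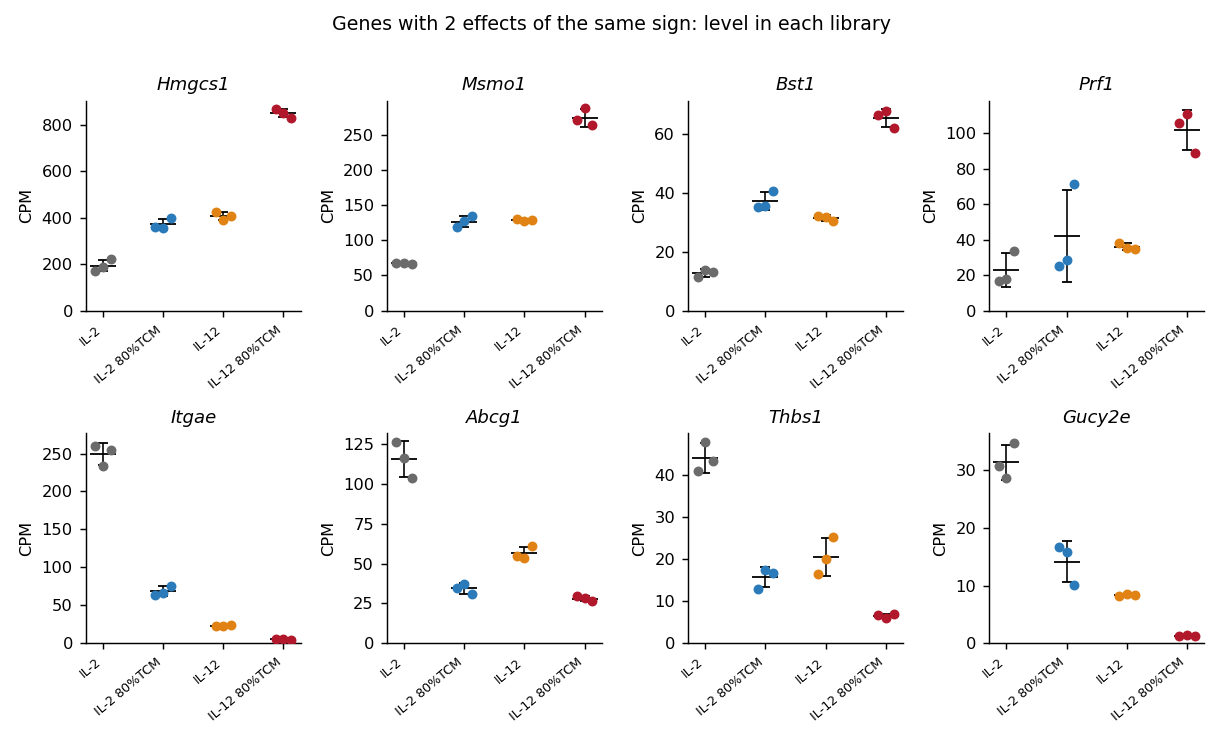
Level in CPM (vertical axis from 0) of 8 genes with both effects of the same sign, in each of the 12 libraries of the 4 groups. Points are libraries, black bars the mean and error bars the SD of 3 libraries. Hmgcs1, Msmo1, Bst1 and Prf1 are highest and Itgae, Abcg1, Thbs1 and Gucy2e lowest in IL-12 80%TCM.

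The strongest paired decrease was in Itgae, the gene of the integrin chain CD103 that anchors resident T cells to epithelium. It was at 259.7, 233 and 255 CPM in IL-2, 63.8, 66.8 and 76.0 CPM in IL-2 80%TCM, 22.5, 22.9 and 24.2 CPM in IL-12 and 6.02, 6.01 and 4.25 CPM in IL-12 80%TCM. The 4 groups formed a falling series with no overlap, and the joint difference was 46.0-fold (log2 -5.52 ± 0.12, adjusted p = 1.4e-12), from -3.55 for IL-12 and -1.98 for TCM. Itgb1, the shared beta chain of the VLA integrins, fell from 324, 319 and 309 to 131, 127 and 127 CPM (-1.31). Rasgrp2, which encodes the exchange factor that activates the integrin switch RAP1, fell from 271, 268 and 228 to 31.0, 30.5 and 33.4 CPM (-3.01), and Rap1gap2, a gene of a GTPase-activating protein for RAP1, from 11.4, 9.87 and 13.2 to 0.484, 0.261 and 0.599 CPM. Of 28 listed integrin and adhesion genes 14 were lower, 7 higher and 9 lowered by both effects, with a median of -0.26.

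Genes of the TGF-beta response, to which Itgae belongs, contained 9 lower and 4 higher members of 19 tested. Tgfbr1, the type I receptor gene, was at 45.4, 43.2 and 48.3 CPM in IL-2 and 18.7, 17.2 and 19.0 CPM in IL-12 80%TCM, and Ski, a repressor of SMAD signalling, at 132, 131 and 138 and 65.7, 67.1 and 66.9 CPM. In both genes each effect alone was downward, and 6 members in all were lowered by both while none was raised by both. Other large paired decreases were Gucy2e, a guanylate cyclase gene, at 30.7, 28.7 and 34.7 and 1.24, 1.46 and 1.249 CPM, Gpr34, a lysophospholipid receptor gene, at 13.4, 12.1 and 17.3 and 0.699, 1.46 and 0.849 CPM, and Cmpk2, an interferon-responsive nucleotide kinase gene, at 14.8, 13.6 and 18.5 and 1.88, 1.78 and 1.45 CPM. Gucy2e, Gpr34 and Cmpk2 were named by a rule that took only genes without overlap between the compared groups, so their lack of overlap was set by that choice.

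Platelet and megakaryocyte genes fell together. All 10 tested members were lower than in IL-2, 8 of them by both effects, with medians of -1.79 against IL-2, -0.88 for IL-12 and -1.10 for TCM. Ppbp, a platelet chemokine gene, went from 28.1, 37.3 and 33.2 to 6.08, 5.28 and 6.09 CPM, and Pf4, platelet factor 4, from 30.9, 38.3 and 27.1 to 6.83, 4.92 and 6.09 CPM. Thbs1, the gene of thrombospondin, which platelets store, was at 40.9, 47.8 and 43.4 CPM in IL-2 and 6.67, 6.12 and 6.89 CPM in IL-12 80%TCM (-2.74), lowered by both. In bulk libraries, fewer cells of a type and less RNA per cell cannot be told apart. Itgb3, the integrin beta chain of platelets, made up most of the summed level and had no called TCM effect (0.023), with means of 209 CPM in IL-2, 154 CPM in IL-2 80%TCM, 63.8 CPM in IL-12 and 89.5 CPM in IL-12 80%TCM. The part of these cells in other lowered genes, Itgb1 among them, was not tested.

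The opposite pattern, IL-12 up and TCM down with a level near IL-2, was common among genes of DNA replication. Of 39 tested genes 26 were raised by IL-12 (27.4% of all genes were) and 38 lowered by TCM (17.7% of all genes were), E2f1 being the only one without a called TCM decrease. Of these genes 24 returned to the IL-2 level. The medians were 0.19 for IL-12, -0.40 for TCM and -0.22 against IL-2, so the return was not complete, and 20 members remained lower than in IL-2 by the test. Only Pcna, Prim2 and Rrm2 were higher than in IL-2. Under upper-quartile scaling, which shifted the median of all genes to -0.061, 25 members were lower.

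Cdc6, the gene of a loading factor for replication origins, was at 72.3, 64.8 and 59.9 CPM in IL-2, 44.7, 42.4 and 36.4 CPM in IL-2 80%TCM, 106, 101 and 101 CPM in IL-12 and 68.8, 66.6 and 63.2 CPM in IL-12 80%TCM. TCM lowered it below every IL-2 library, IL-12 raised it above every IL-2 library, and with both changes the libraries interleaved with those of IL-2. The joint log2 fold change was 0.012 ± 0.081, with a 95% interval of -0.16 to 0.19, from 0.66 for IL-12 and -0.65 for TCM. E2f7, a cell-cycle repressor gene, had 23.7, 23.6 and 24.4 CPM in IL-2 and 25.2, 23.1 and 24.9 CPM in IL-12 80%TCM (interval -0.20 to 0.26), while the level was 18.2, 17.2 and 12.6 CPM in IL-2 80%TCM and 37.2, 35.5 and 36.0 CPM in IL-12. Asf1b, a histone chaperone gene of replicating cells, was at 98.9, 93.8 and 88.0 and 94.3, 91.4 and 93.0 CPM. Pcna, the sliding clamp of DNA polymerase, was opposed but did not return. It went from 480.4, 455 and 410.2 CPM in IL-2 to 1056, 1044 and 1003 CPM in IL-12, and at 756, 764 and 743 CPM in IL-12 80%TCM it was still 1.68-fold above IL-2 (adjusted p = 1.3e-06).

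Starts of replication genes and of E2f7 are shown for the letters TTTCCCGC or TTTGGCGC on either strand. These letters are known from E2F elements and were chosen after the values were seen. In the RefSeq table they were in 10 of 36 windows of listed replication genes (27.8%), from 31 of 39 genes, and in 514 of 32851 windows of all genes (1.56%). The examples are Cdc6 (chr11:98907901-98908200) and Mcm5 (chr8:75109259-75109558), a helicase subunit gene chosen after its values were seen. E2f7 (chr10:110745189-110745488) is shown beside them but is not on the replication list, so its window is not among the 36. All are on the + strand of GRCm38.p6. The capitals mark the match, which reads as the reverse complement of the letters given.
Cdc6: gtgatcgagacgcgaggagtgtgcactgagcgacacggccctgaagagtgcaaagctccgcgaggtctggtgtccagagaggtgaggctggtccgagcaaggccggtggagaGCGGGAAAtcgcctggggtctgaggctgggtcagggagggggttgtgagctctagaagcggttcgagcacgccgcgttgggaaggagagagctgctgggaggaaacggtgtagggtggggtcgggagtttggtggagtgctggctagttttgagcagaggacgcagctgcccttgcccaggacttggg
E2f7: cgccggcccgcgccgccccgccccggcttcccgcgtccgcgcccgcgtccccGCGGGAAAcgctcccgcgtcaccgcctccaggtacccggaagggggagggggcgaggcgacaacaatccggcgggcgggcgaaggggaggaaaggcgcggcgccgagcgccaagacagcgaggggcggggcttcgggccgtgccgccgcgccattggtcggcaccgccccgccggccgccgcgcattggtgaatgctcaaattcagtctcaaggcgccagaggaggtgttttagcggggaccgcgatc
Mcm5: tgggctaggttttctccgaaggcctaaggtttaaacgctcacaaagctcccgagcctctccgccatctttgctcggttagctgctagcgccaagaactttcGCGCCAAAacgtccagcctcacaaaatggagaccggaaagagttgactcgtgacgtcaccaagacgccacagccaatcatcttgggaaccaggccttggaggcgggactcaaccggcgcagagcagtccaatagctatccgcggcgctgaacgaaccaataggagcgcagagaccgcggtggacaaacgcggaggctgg
Mcm5 also returned, with effects of 0.30 for IL-12 and -0.65 for TCM, and was 1.28-fold below IL-2 (adjusted p = 0.00027). A match describes the sequence only.

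Further lists of growing cells showed the same 2 opposed directions. Their median TCM effects were smaller than that of DNA replication (-0.40), at -0.28 for mitosis, -0.27 for MYC and ribosome biogenesis, -0.14 for the proteasome and -0.075 for oxidative phosphorylation. Their median IL-12 effects were 0.12, 0.23, 0.33 and 0.18, in the same order. The counts that follow stand beside 27.4% of all genes raised by IL-12, 17.7% lowered by TCM and 5.81% returning from an IL-12 increase. Of 32 mitosis genes 17 were raised by IL-12, 27 lowered by TCM and 15 returned. Against IL-2, 13 of them were lower and 1 higher, beside 21.4% and 20.7% of all genes. Under upper-quartile scaling 19 were lower and 0 higher. Of 28 proteasome genes 27 were raised by IL-12, 17 lowered by TCM and 17 returned, and 15 stayed higher than in IL-2, with Psmd3 at 113, 119 and 107 and 154, 151 and 152 CPM. Genes of MYC and ribosome biogenesis had 20 of 34 raised by IL-12, 22 lowered by TCM and 12 returned. Here 9 were lower and 5 higher than in IL-2 by the test. Without replicate 3 of both IL-2 groups 18 were lower and 6 higher. That setting called more genes lower in all, 4211 of 15773 against 3402 of 15897. Myc itself was higher, at 82.6, 87.8 and 97.2 CPM in IL-2 and 153, 157 and 156 CPM in IL-12 80%TCM, and followed IL-12 (0.78) with no called TCM effect. Nuclear genes of oxidative phosphorylation had 31 of 43 raised by IL-12 and 13 lowered by TCM, and 16 ended higher and 2 lower than in IL-2. Mki67, the proliferation marker, was at 1589, 1525 and 1739 CPM in IL-2 and 1455, 1213 and 1304 CPM in IL-12 80%TCM (-0.29, adjusted p = 0.01), and it was not called without IL-12 80%TCM replicate 2 (adjusted p = 0.052).

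In the unfolded protein response, members differed in their pattern. Sdf2l1, a chaperone gene of the endoplasmic reticulum, returned fully. It was at 47.2, 49.0 and 37.1 CPM in IL-2, 31.9, 31.3 and 27.0 CPM in IL-2 80%TCM, 66.4, 66.0 and 69.5 CPM in IL-12 and 46.8, 45.5 and 45.5 CPM in IL-12 80%TCM (interval -0.15 to 0.25). Ern1, which encodes the stress sensor IRE1, instead followed IL-12 and rose 3.28-fold, and Xbp1, the factor that IRE1 activates, was raised by both effects, from 73.9, 79.4 and 69.5 to 122, 132 and 135 CPM. Of 24 genes 10 were higher and 2 lower than in IL-2, 2 added up and 6 returned. Without replicate 3 of both IL-2 groups 6 were lower, as were 4211 of 15773 genes in all. Neto2, an accessory subunit gene of glutamate receptors, had one of the wider swings among the returning genes, at 4.55, 5.28 and 2.91 CPM in IL-2 80%TCM and 22.9, 19.9 and 21.99 CPM in IL-12 against 8.33, 8.82 and 9.81 CPM in IL-2 and 10.2, 8.42 and 10.1 CPM in IL-12 80%TCM. Egr3, an early gene of T cell receptor signalling, was at 7.67, 8.54 and 5.15 and 7.42, 7.01 and 6.94 CPM in the compared groups, with effects of 0.94 and -0.94, and Uchl1 and Crybg3 behaved likewise (intervals -0.56 to 0.10 and -0.55 to 0.32). Without IL-2 replicate 2, Uchl1 was called lower than IL-2 (-0.39, adjusted p = 0.035).

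The mirror pattern, IL-12 down and TCM up, included the granzyme gene Gzmb. It was the only 1 of 25 tested cytotoxic granule genes that returned from an IL-12 decrease, where 3.94% of all genes did. Gzmb, the gene of granzyme B, was at 923, 959 and 1338 CPM in IL-2, 1075, 1147 and 1880.4 CPM in IL-2 80%TCM, 574, 438 and 412 CPM in IL-12 and 1159, 1069 and 989 CPM in IL-12 80%TCM. IL-12 alone gave the lowest libraries of the 12, TCM brought the level back among those of IL-2, and replicate 3 was the highest library of each IL-2 group. The joint log2 fold change was -0.0012 ± 0.20 with an interval of -0.43 to 0.43, and it was 0.17 without replicate 3 of both IL-2 groups. Granzymes form a family of similar genes, and reads shared between them may have been split or lost in the counting. Gzmc, a neighbouring family member, did not return and was lowered by both effects, from 72.2, 75.8 and 72.5 to 22.4, 23.4 and 18.7 CPM.

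Ctla4, the gene of the checkpoint receptor that competes with CD28, showed this with little spread. It had 253, 239 and 247 CPM in IL-2, 376, 394 and 327 CPM in IL-2 80%TCM, 162, 183 and 170.4 CPM in IL-12 and 239.8, 259.7 and 248 CPM in IL-12 80%TCM. The 3 libraries with TCM alone were above all others, the 3 with IL-12 alone were below all others, and the compared groups overlapped (joint 0.017 ± 0.070, interval -0.13 to 0.17, from -0.54 and 0.55). Pdcd1 and Lag3, described above, were instead 2.99-fold and 2.72-fold above IL-2. Blvrb, a biliverdin reductase gene, was at 9.48, 8.13 and 8.26 and 9.03, 8.47 and 8.84 CPM (interval -0.24 to 0.30), Pbx4, a homeobox factor gene, at 10.2, 9.62 and 13.5 and 10.2, 10.04 and 10.49 CPM, and Dbp, a factor of the circadian clock, at 7.93, 9.50 and 8.75 and 9.30, 9.62 and 7.74 CPM. Vamp1, a vesicle fusion gene, had 46.9, 55.7 and 49.3 and 42.6, 44.7 and 50.7 CPM, and Igsf23 5.47, 6.40 and 6.62 and 4.36, 5.28 and 5.79 CPM. H2-Ob, an MHC class II chaperone chain gene, met the margin but was lower than in IL-2 by the test (-0.32, adjusted p = 0.027), and left the margin without replicate 3 of both IL-2 groups (-0.39). Tet1, a DNA demethylation enzyme gene, had 0.12 with all libraries and was called higher without replicate 3 of both IL-2 groups (0.35, adjusted p = 0.0073), still within the margin.

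**Figure D4:**
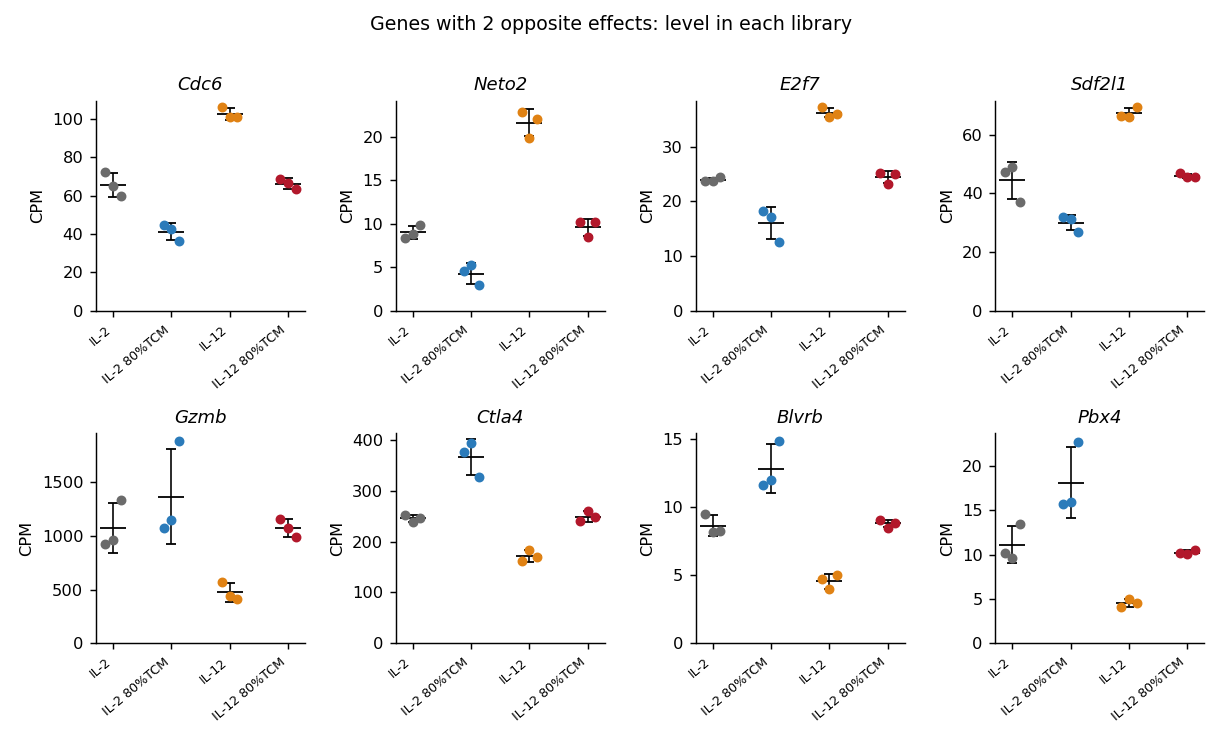
Level in CPM (vertical axis from 0) of 8 genes with opposed effects that returned to within 1.5-fold of IL-2, in each of the 12 libraries of the 4 groups. Points are libraries, black bars the mean and error bars the SD of 3 libraries. Cdc6, Neto2, E2f7 and Sdf2l1 peak with IL-12 alone and dip with IL-2 80%TCM, and Gzmb, Ctla4, Blvrb and Pbx4 dip with IL-12 alone.

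Interferon-responsive genes were divided. Usp18, which encodes an inhibitor of type I interferon signalling, was at 21.7, 23.6 and 27.4 CPM in IL-2 and 272, 263 and 271 CPM in IL-12 80%TCM (11.1-fold, adjusted p = 3.1e-12), raised by both effects. Irf7, a master factor of the type I interferon response, was lowered by both, from 47.3, 48.2 and 51.4 to 19.4, 17.4 and 17.5 CPM. Gbp2, a guanylate-binding protein gene induced by interferon gamma, was opposed and went from 323, 314 and 415 CPM in IL-2 to 1332, 1331 and 1349 CPM in IL-12 and 1134, 1145 and 1066 CPM in IL-12 80%TCM. Cxcl10, a chemokine gene of the same response, fell back further, from 10.04 CPM in IL-12 to 2.73 CPM in IL-12 80%TCM against 1.42 CPM in IL-2. Of 51 tested genes 16 were higher and 20 lower. IL-12 lowered 30 (28.7% of all genes), TCM raised 18 (18.2% of all genes), and 7 returned from an IL-12 decrease (3.94% of all genes). Guanylate-binding proteins are also a family of similar genes. MHC class I presentation had 3 genes higher and 2 lower of 21, smaller shares than the 20.7% and 21.4% of all genes. Of its genes 8 returned from an IL-12 increase and 4 from an IL-12 decrease (5.81% and 3.94% of all genes). The median was 0.019, and -0.04 under upper-quartile scaling.

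Migration receptors moved in both directions. Cxcr6, the receptor for CXCL16, was at 44.4, 39.5 and 52.6 CPM in IL-2, 22.7, 25.3 and 22.1 CPM in IL-2 80%TCM, 279, 279 and 261 CPM in IL-12 and 294, 326 and 293 CPM in IL-12 80%TCM. The TCM effect was -0.96 next to IL-2 (adjusted p = 6.3e-05) and 0.16 next to IL-12 (adjusted p = 0.2), and the departure from additivity was 1.12 ± 0.13 (adjusted p = 0.00091). Gpr18 and Gpr183, which guide lymphocytes by lipid ligands, went from 44.4, 42.5 and 46.0 to 154, 160.3 and 146 CPM and from 14.7, 13.7 and 12.8 to 77.6, 76.3 and 75.7 CPM. Ccr7, the lymph node homing receptor, fell from 417, 393 and 342 to 256, 240.4 and 238 CPM, and Ccr9, the gut homing receptor, from 7.54, 8.70 and 5.73 to 2.20, 2.46 and 2.30 CPM, with a TCM effect (0.42) against the IL-12 effect (-2.07). Of 19 listed receptors 7 were higher and 10 lower (median -0.44). IL-12 raised 9 and lowered 7 of them, where it raised 27.4% and lowered 28.7% of all genes. TCM raised 3 and lowered 9, beside 18.2% and 17.7% of all genes.

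**Figure D5:**
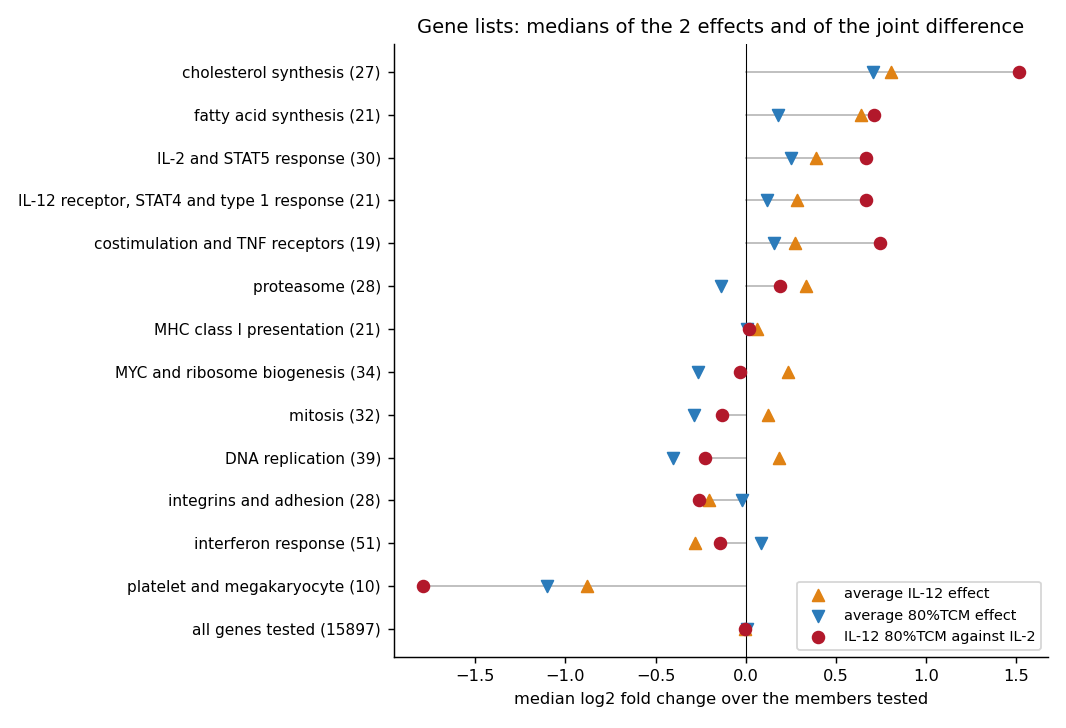
Median log2 fold change (horizontal axis) of 13 gene lists and of all genes tested, with the number of tested members in brackets. Triangles pointing up show the average IL-12 effect, triangles pointing down the average 80%TCM effect and circles IL-12 80%TCM against IL-2. Cholesterol synthesis and platelet genes have both medians on the same side of 0, and DNA replication, mitosis, MYC and ribosome biogenesis, proteasome and interferon response have them on opposite sides.

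The counts for glycolysis and the hypoxia response depended on replicate 3 of the IL-2 groups. With all libraries, 6 of 25 glycolysis genes were higher, where 20.7% of all genes were, and 0 lower (median 0.26). Without replicate 3 of both IL-2 groups 20 were higher and 1 lower (median 0.73). In that setting 3852 of 15773 genes were higher and 4211 lower. Hypoxia genes went from 6 higher and 2 lower of 26 (median -0.032) to 15 higher and 2 lower (median 0.83). Hk2, the hexokinase gene, was among those higher in both settings, at 38.8, 42.5 and 45.7 CPM in IL-2 and 185, 141 and 148 CPM in IL-12 80%TCM, as was Slc2a1, the glucose transporter gene, at 35.3, 37.4 and 60.2 and 114, 111 and 104 CPM. In Slc2a1 and Stc2, a hypoxia-responsive secreted factor gene at 8.99, 10.6 and 24.3 and 78.8, 82.4 and 85.4 CPM, IL-2 replicate 3 was the highest library of its group and still below the IL-12 80%TCM libraries.

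Departures from additivity were called at 251 genes (1.58%), 189 above (1.19%) and 62 below (0.39%) the sum of the single steps on the log2 scale, and at an unadjusted p under 0.05 at 2348 genes. The count rests on single libraries, being 1164 without IL-2 80%TCM replicate 3, 105 without IL-12 80%TCM replicate 2 and 2105 without replicate 3 of both IL-2 groups. Each of IL-2 replicate 2, the other IL-2 80%TCM libraries and all IL-12 and IL-12 80%TCM libraries, left out alone, gave 105 to 149 genes. Among adding genes 90 of 1500 and among returning genes 26 of 1549 had a called departure. Trim66, a chromatin reader gene, showed the largest upward departure that the naming rule took. It was at 0.705, 1.77 and 1.64 CPM in IL-2, 1.16, 0.627 and 1.12 CPM in IL-2 80%TCM, 18.3, 18.2 and 16.7 CPM in IL-12 and 107, 94.2 and 102 CPM in IL-12 80%TCM, with a departure of 3.04 ± 0.33 (adjusted p = 0.00068). The libraries of IL-2 with and without TCM overlapped, and with IL-12 the 3 TCM libraries lay far above those without. Cd93 had a different form, falling with either change from 21.6, 21.3 and 23.7 CPM in IL-2 to 9.69, 9.92 and 14.7 CPM with TCM and 5.05, 4.54 and 5.28 CPM with IL-12, and standing at 14.8, 13.0 and 12.2 CPM with both. Tmem154 departed downward, at 24.5, 22.99 and 27.7 CPM in IL-2, 16.0, 15.7 and 15.1 CPM in IL-2 80%TCM, 18.9, 18.8 and 17.2 CPM in IL-12 and 4.25, 3.56 and 4.15 CPM in IL-12 80%TCM (-1.52 ± 0.14, adjusted p = 0.00026).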

How the data were processed

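Raw counts per gene were made by the authors, with STAR 2.7.7a and edgeR named in the submitters' processing notes, and the second deposited signal per gene is the count over a constant for each library. The notes name a human genome build (GRCh38) while all gene identifiers are from mouse, so the authors' coordinates were not used. The strand option used in counting is not stated in those notes or the labels, and reads of overlapping genes on opposite strands cannot be told apart. The extraction protocol speaks of bortezomib and livers, which no sample label names. Symbols came from a name table for 55141 of 55487 identifiers, 346 having none, and 5 of 918 listed symbols were not matched.

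From the deposited counts, genes were filtered with filterByExpr (minimum count 10, minimum total 15), libraries scaled by TMM, and 1 mean per group fitted over all 12 libraries in edgeR 4.0.16 (R 4.3.3, common biological coefficient of variation 0.104). Levels carry the SD of 3 libraries, and log2 fold changes a standard error (SE) derived from the F statistic. Benjamini-Hochberg adjustment was over the 15897 genes tested. The departure from additivity is the interaction of cytokine and TCM.

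The genes to name and the 42 gene lists were chosen with earlier results of these data known. The rule took the 10 highest and 10 lowest fold changes among called genes without overlap between the compared groups. It also took 8 in each direction of adding and of returning genes by the smaller of their 2 effects, and 5 departures each way. All of these had at least 10 CPM. With the 4 smallest p per list and 26 anchor genes there were 212 in all, leaving out unnamed gene models. Other list members that are named were chosen after their values were seen, and not every gene taken by the rule is printed, some being not reported here.

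Alternatives were other scalings, filters and thresholds, DESeq2 1.42.0, limma 3.58.1 on log2 of the deposited signal, fits of fewer libraries, single steps in place of average effects and a replicate block. On simulated data, 50 of 50 adding and 50 of 50 returning genes of 2-fold effects were recovered among 15465 genes, and 8 of 15265 genes without a change were called. The simulated effects were in genes of at least 10 CPM, with no library set apart as IL-2 replicate 3 was. They were larger than the median log2 effects found, 0.50 and 0.33 in adding and 0.30 and 0.26 in returning genes. Recovery of effects of that smaller size was not tested.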

Additional observations from a re-analysis of the deposited data

Results flagged for a closer look

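At 251 genes the TCM effect next to IL-12 differed from the TCM effect next to IL-2, by edgeR's interaction test at an adjusted p of 0.05, a count that was 105 to 1164 when 1 library was left out. Of the 212 named genes 29 were among them, 20 with a higher and 9 with a lower TCM effect next to IL-12. The differences of the log2 TCM effects (IL-12 minus IL-2) were 3.04 for Trim66, 2.38 for Cd93, 2.22 for Cxcr2, 2.20 for Serpinb5 and 1.88 for Fam20a. Cxcr2 and Serpinb5 had few counts in the IL-2 groups (IL-2 means of 0.255 and 0.349 CPM), which limits the precision of that side.

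Lipid and iron genes above additivity were Abca1 (1.12), Scd1 (1.01), Mylip (0.91), Abcg1 (0.74), Fth1 (0.65), Slc11a2 (0.63), Acat2 (0.57) and Acadl (0.38). Receptor and signalling genes above it were Cxcr6 (1.12), Itgb3 (0.93), Irf7 (0.67), Nfatc2 (0.52), Bcl2 (0.35) and Rasgrp1 (0.27).

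Below additivity were Bst1 (-0.49), Bcl6 (-0.68), Rasgrp2 (-0.76), Bbc3 (-0.93), Wnt10b (-1.28), Tmem154 (-1.52), Gucy2e (-1.52), Arhgap29 (-1.55) and Rap1gap2 (-1.81). Bbc3, which encodes the death protein PUMA, was at 30.0, 31.5 and 30.9 CPM in IL-2 80%TCM and 26.3, 27.6 and 26.3 CPM in IL-2, against 12.4, 12.9 and 11.9 CPM in IL-12 80%TCM and 21.0, 20.2 and 20.3 CPM in IL-12. Arhgap29, a gene of a GTPase-activating protein, was at 31.4, 32.6 and 31.3 CPM in IL-12 and 12.8, 13.1 and 13.4 CPM in IL-12 80%TCM, and at 1.45, 1.53 and 0.755 CPM in IL-2.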

How the results depend on the processing

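Recomputed under every setting, no called difference of a named gene from IL-2 changed sign (0 values), 4801 values kept their side of the threshold, 34 lost and 23 gained a call. The counts of adding, opposed and returning genes depend on the threshold and on how the effects are taken. At an adjusted p of 0.01 they were 835, 1074 and 800, with 3424 genes called for TCM and 73 for a departure. With single steps through IL-2 80%TCM in place of average effects they were 512, 751 and 466, with steps through IL-12 899 genes added up, and with both effects at least 1.5-fold (chosen after seeing the data) they were 334, 333 and 51. A narrower margin left 930 returning genes. At least 2-fold differences from IL-2 numbered 1949. Departures numbered 779 with no filter on low counts, 537 in DESeq2 and 2105 without replicate 3 of both IL-2 groups. Leaving out 1 library at a time gave 5562 to 7516 genes different from IL-2, 8115 to 9205 for IL-12, 4632 to 6331 for TCM, 1210 to 1655 adding, 1570 to 2301 opposed, 1112 to 1664 returning and 105 to 1164 departing, the last without IL-2 80%TCM replicate 3. Upper-quartile scaling gave 2715 higher and 4052 lower genes. Same-numbered replicates of IL-2 and IL-12 80%TCM had residual correlations of 0.066, -0.019 and -0.0998, which show no pairing but cannot exclude it with 3 libraries a group. Other groups were not correlated in this way, and in Prf1 and Gzmb replicate 3 was the highest library of both IL-2 groups. A replicate block gave 6971 genes different from IL-2, 1586 adding and 1695 returning. Depth limits genes such as Cxcr1, with 12 counts over the IL-2 libraries.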

Other observations

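Genes of iron and redox handling moved in both directions. Of 25 tested genes 13 were higher and 7 lower than in IL-2. Gpx4, which protects lipids from peroxidation, was at 142, 137 and 139.9 CPM in IL-2 and 217, 219.9 and 208 CPM in IL-12 80%TCM, raised by both effects. Sod1, the cytosolic superoxide dismutase gene, was at 252, 237 and 235 and 169.6, 166 and 163 CPM, lowered by both. Acadl, an enzyme of fatty acid oxidation, went from 110.1, 105 and 115 to 364, 366 and 348 CPM, while 5 of the 20 genes of its list were higher and 8 lower.

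Among genes of T cell receptor signalling, 14 of 28 were higher and 7 lower. The kinase genes Fyn and Lck went from 301, 306 and 294 to 634, 628 and 656 CPM and from 664, 641 and 618 to 893, 896 and 849 CPM, both with a called IL-12 effect and no called TCM effect. Rasgrp1, which links the receptor to Ras, was lower at 306, 294 and 312 CPM against 401, 409 and 415 CPM. Killer lectin-like receptors, a family of similar genes, had 7 higher and 3 lower members of 16. Klrc1 was at 12.1, 12.2 and 9.95 and 24.5, 27.2 and 28.1 CPM, and Klrk1, the gene of the activating receptor NKG2D, at 245, 247 and 251 and 175, 168 and 164 CPM with opposed effects (-0.84 for IL-12 and 0.29 for TCM). Of 13 mitochondrially encoded genes 1 was higher and 0 lower, against 0 higher and 1 lower under upper-quartile scaling. Without replicate 3 of both IL-2 groups 2 were higher and 3 lower, beside 3852 and 4211 of 15773 genes. The higher gene, mt-Co1 (0.22, adjusted p = 0.032), was not called in many other settings, among them without IL-2 replicate 3 (adjusted p = 0.16).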
